A study of Homo sapiens with 9 samples.

Results

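The peaks described here are the whole p300 peak list of 1 library, the third of 3 from PC3 cells given MnTE-2-PyP before irradiation. They are every row of that list, 447 peaks that also occur in another list of the study and 81 that do not. They make up 2.66% of the 19861 peaks in the 5 lists. No peak was chosen by a measured value, but the list was picked with earlier results of these data known. The list is called treated list 3, and it is the shortest of the 5. A low yield of the library was not measured, since peak lists hold no read counts, and a short list can also come from the threshold of the peak call.

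PC3 is an established line from a prostate cancer metastasis. In the treated group, cells were exposed to MnTE-2-PyP at 30 µM during the 24 h before radiation. The drug is a manganese porphyrin with superoxide dismutase activity. In the untreated group no drug was given. All cells of both groups received 20 Gy and were fixed with 1% formaldehyde 1 h later, so no list comes from unirradiated cells. Chromatin in pieces of roughly 100 to 300 bp was precipitated with an anti-p300 antibody and read on an Ion Proton sequencer. The labels describe 2 untreated and 3 treated biological replicates and 4 inputs. The inputs were not analysed here. Peak lists hold no marker of the cell line, so the line was taken as labelled.

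p300 is a large coactivator that transcription factors bring to enhancers and promoters, where it acetylates histones, H3K27 among them, and other proteins. Its peaks in ChIP-seq are widely used to find active enhancers, and in prostate cancer cells it is a coactivator of the androgen receptor, which PC3 cells largely lack. Tandem repeats, in which 1 unit of DNA stands many times in a row, are a different kind of place. Reads from such copies match several places of the reference. How the authors handled them is not stated in the labels, and its part in the rows of peaks described below was not tested.

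Each peak has a position on hg19, counted here from 1, and a score given by the authors. No source names the scale of that score, so it ranks a peak within its own list, and a percentile of 100 marks the top of that list. The other lists were longer: untreated list 1 had 2313 peaks, untreated list 2 had 2039, treated list 1 had 4922 and treated list 2 had 10059. In treated list 3 the score ran from 2.16 to 75.7 with a median of 7.42, and peaks were 200 to 1966 bp wide with a median of 243 bp. The lowest score and the narrowest peak differed between lists (2.02 to 3.04 and 193 to 332 bp), so the lists may not share 1 threshold. Peak names carry a run identifier that treated list 3 shares with untreated list 2 alone. The labels do not call these identifiers batches.

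Most peaks of the short list recurred elsewhere. Of its peaks, 447 (84.7%, 95% Wilson interval 81.3 to 87.5%) overlapped a peak of at least 1 other list by 1 bp or more. All 4 other lists held 160 of them (30.3%, 26.5 to 34.3%), 3 lists held 87 (16.5%), 2 lists held 112 (21.2%) and 1 list held 88 (16.7%). The remaining 81 (15.3%, 12.5 to 18.7%) were in no other list. The intervals cover counting error only. These counts depend on how long the other lists are. Without treated list 2, the longest, 132 peaks were in no other list. When each other list was limited to as many top-scoring peaks as treated list 3 holds, 246 of its peaks were in no other list and 75 were in all 4.

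Score did not climb steadily with recurrence. The median score was 5.42 in peaks found in no other list, 6.53 with 1 list, 8.84 with 2, 6.49 with 3 and 9.26 with 4. The corresponding median percentiles within the list were 29.2, 42.3, 60.1, 41.9 and 63.2. Peaks of 2 lists thus ranked above peaks of 3, and the peaks of 2 lists included 24 of the 50 highest-scoring peaks of treated list 3, against 6 with 3 lists and 13 with 4. Of these 24, 22 were held by the same pair of lists, untreated list 1 and treated list 2. Without the peaks of that pair, the 69 others of 2 lists had a median percentile of 46.0.

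**Figure D1:**
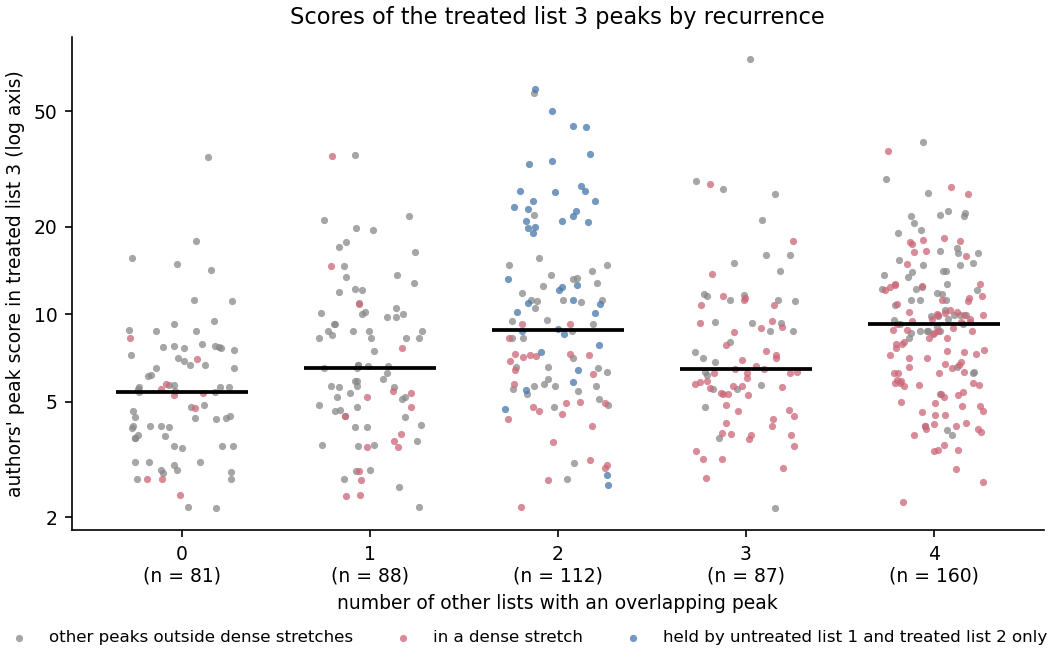
Each point is 1 peak of treated list 3. The vertical log axis is the authors' score, the horizontal axis is the number of other lists with an overlapping peak, spread sideways at random, and black lines are group medians (5.42, 6.53, 8.84, 6.49 and 9.26). Peaks of dense stretches fill the columns for 3 and 4 lists, and the pair-only peaks stand at the top of the column for 2.

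Dense stretches were defined from the positions of treated list 3 alone, as runs of 3 or more peaks each within 50 kb of the next. They held 214 peaks (40.5%, 36.4 to 44.8%). The share was 12.3% of peaks in no other list, 19.3% with 1 list, 27.7% with 2, 63.2% with 3 and 63.1% with 4. Most peaks shared by 3 or 4 lists thus stood in rows, though these were not the highest scoring ones. Peaks in stretches had a median score of 6.29 (39.6th percentile) and a median width of 300.5 bp, and only 5 of the 50 highest-scoring peaks were among them.

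In the other 314 peaks rank moved more with recurrence. Their median percentile was 29.7 in no other list, 44.8 with 1 list, 74.2 with 2, 64.2 with 3 and 77.5 with 4. Inside the stretches the same medians were 27.4, 19.3, 35.2, 36.4 and 50.9. Outside the stretches lay 45 of the top 50 peaks. There, 59 peaks recurred in all 4 other lists, with a median score of 11.8.

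Widely shared peaks were wider, more so inside the stretches than outside. Over all peaks the median width went from 224 bp in no other list to 324 bp in all 4, a difference of 100 bp. Inside the stretches it was 251.5 bp for the 10 peaks in no other list and 371 bp for the 101 in all 4, with 274, 234 and 294 bp for 1, 2 and 3 lists. Outside them it went from 220 to 242 bp, a difference of 22 bp, and against as many top peaks of each other list the difference over all peaks was 7 bp. A wide peak also has more bases to meet another peak with. There were 49 peaks of 500 bp or more, of which 42 were in all 4 other lists and 36 in stretches. All 7 peaks of 1000 bp or more were both in stretches and in all 4 other lists. The widest peak, chr1:2585122-2587087, spanned 1966 bp but scored 7.64, rank 258 in the list. Its partners scored 15.7 (untreated list 1), 9.20 (untreated list 2), 29.7 (treated list 1) and 32.4 (treated list 2).

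At the narrow end, 171 peaks lay within 10% of the 200 bp minimum. They made up 46.9% of peaks in no other list, 46.6% with 1 list, 35.7% with 2, 25.3% with 3 and 18.8% with 4. Exactly 200 bp was the width of 26 peaks, which scored 2.72 to 8.89. Of these 26, 12 were in no other list and 3 were in all 4.

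For the 81 peaks in no other list, the distance to the nearest peak elsewhere was taken. The share expected at random places was not computed, so these distances only describe the 81 peaks. The nearest peak of any other list was at most 500 bp away for 10 of them, at most 5 kb for 23 and at most 50 kb for 59 (72.8%), with a median of 16254 bp. None was wider than 456 bp, and 1 was in the top 50. That one, chr5:122990646-122991006, scored 34.7 (rank 12), with the nearest peak of another list 558 kb away. The next were chr3:108250166-108250416 with 17.9 (rank 56) and chr21:15457242-15457454 with 15.6 (rank 72), so strong peaks without a partner were few.

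Many of the strongest peaks were held by the same pair of lists. Untreated list 1 and treated list 2, and neither of the others, held 43 peaks of treated list 3 (8.14%) on 20 chromosomes. This pair was singled out after its values were seen. The scores of the 43 ran from 2.59 to 59.9 with a median of 19.9, the 91.1th percentile, and 22 of the 50 highest-scoring peaks were among them. The other pairs did not look like this. Both other treated lists, and no untreated one, held 46 peaks with a median percentile of 40.6 and 1 in the top 50. Untreated list 1 with treated list 1 held 11 (1 in the top 50), untreated list 2 with treated list 1 or with treated list 2 held 6 each (none in the top 50), and the 2 untreated lists together held 0.

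These 43 peaks were also high in both partner lists. Their partners had a median percentile of 98.5 in untreated list 1 and 98.1 in treated list 2. Over all shared peaks outside the stretches, most of the 43 among them, those medians were 91.6 and 94.4. Of the 43, 29 were at or above the 90th percentile of untreated list 1 and 34 of treated list 2. Scores ranked alike, with Spearman's rho of 0.75 against untreated list 1 and 0.69 against treated list 2 over the 43 peaks of 1 library. Over all shared peaks rho was 0.47 (284 peaks) for untreated list 1, 0.30 (205) for untreated list 2, 0.43 (334) for treated list 1 and 0.42 (390) for treated list 2. Over shared peaks outside the stretches it was 0.50, 0.28, 0.47 and 0.53, in the same order.

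They were isolated, with 39 of the 43 outside the stretches. Their median width was 234 bp, close to the 229.5 bp of all peaks outside the stretches. The nearest peak was a median of 808 kb away in untreated list 2 and 641 kb away in treated list 1, and only 5 of the 43 had one within 5 kb. Distances expected at random places were not computed, so these only describe the 43 peaks. The pair joins 1 untreated with 1 treated list, and untreated list 2, which shares the run identifier of treated list 3, lacks these peaks. Both points are fixed by how the 43 were picked. Whether their presence follows the drug label or the run identifier was not tested. The sources used here do not say what else the 3 libraries share.

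**Figure D2:**
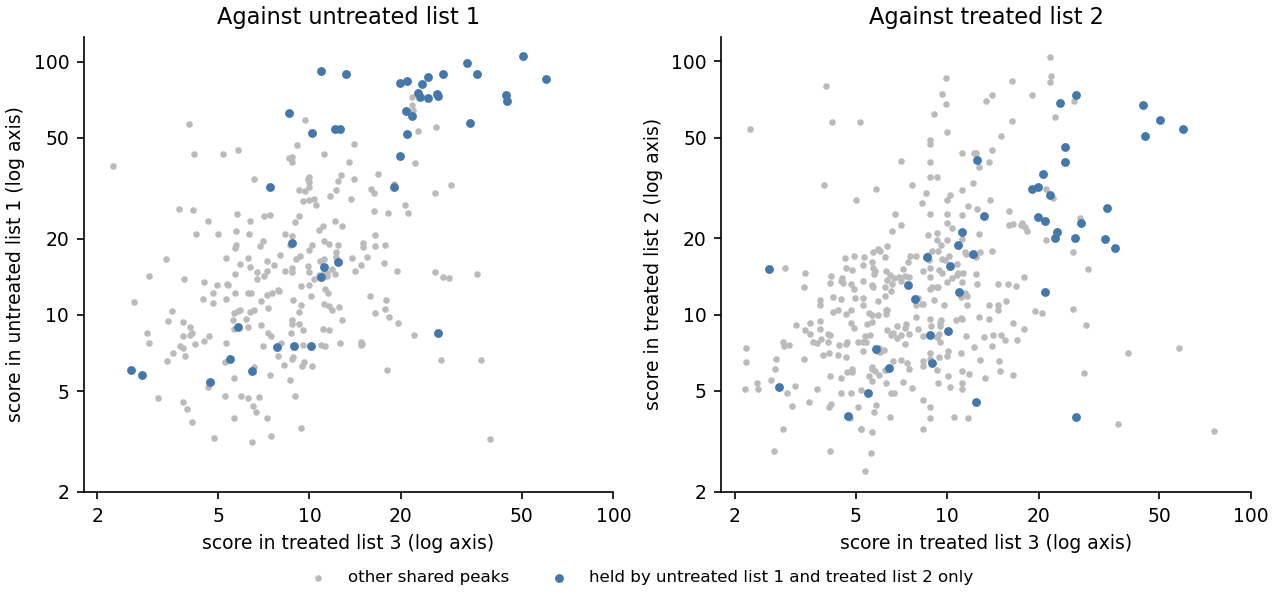
Each point is a peak of treated list 3 that overlaps a peak of untreated list 1 (left) or treated list 2 (right), with its score in treated list 3 on the horizontal and in the other list on the vertical axis, both on log axes. Blue points are the 43 peaks held by that pair only, most of which lie at the upper right. Grey points are all other shared peaks.

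The set also showed from the other lists, more from untreated list 1 than from treated list 2. Of the 20 highest peaks of untreated list 1, 18 were in treated list 2 and in neither untreated list 2 nor treated list 1, and 16 of those 18 were in treated list 3. Of its 100 highest, 44 had that pattern and 27 of them were in treated list 3. Of the 20 highest peaks of treated list 2, 3 had the pattern, and of its 50 highest, 7 did. Of its 100 highest, 12 were also in untreated list 1 and in neither of the other 2 lists, and all 12 were in treated list 3. Among the 100 highest of untreated list 2 and of treated list 1, none was held by treated list 3 and just 1 more list.

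The 10 highest-scoring peaks show both kinds of place. Of these, 5 were pair-only peaks. The strongest of the 5, chr7:82093550-82093830, scored 59.9 in treated list 3, 85.4 in untreated list 1 and 54.0 in treated list 2. At chr4:116458356-116458641 the scores, in the same order, were 50.4, 105.1 and 58.9, and this was the top peak of untreated list 1. At chr9:96899123-96899408 they were 44.7, 69.6 and 50.8, and at chr4:23703147-23703461 they were 44.2, 73.7 and 67.4. The fifth, chr10:82556249-82556503, scored 35.6 against 89.3 and 18.4. In these 5 regions untreated list 2 and treated list 1 had no peak.

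The highest peak of all was not one of them. At chr1:108113092-108113694, 603 bp wide, treated list 3 scored 75.7, while untreated list 2 scored 4.11, treated list 1 scored 9.79 and treated list 2 scored 3.49. Untreated list 1 had no peak there. The third, chr16:47538584-47538907, scored 58.0 against 9.34 in treated list 1 and 7.38 in treated list 2, with none in the untreated lists. These were the top peaks of treated list 3 at places that ranked lower elsewhere, in contrast to the pair-only peaks.

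Peaks in all 4 other lists entered the top 10 at 2 places. The first, chr19:24184496-24185111, scored 39.3, while untreated lists 1 and 2 scored 3.23 and 5.12 and treated lists 1 and 2 scored 17.9 and 7.08. The second, chr2:133038107-133038795, scored 36.6 inside a dense stretch of 8 peaks, while those lists scored 6.63, 17.3, 15.1 and 3.70. The next in that group was chr15:100207499-100207716, with 29.2. There the untreated lists scored 32.5 and 6.33, and treated lists 1 and 2 scored 41.1 and 15.1. The tenth peak, chr6:133593950-133594193 (35.5), was in untreated list 1 alone, which scored it 14.5. The next peaks held by 1 other list were chrY:10035934-10036266 (35.2, against 8.95 in untreated list 2) and chr21:9825927-9826263 (21.9, against 6.58 in treated list 1). Among peaks with 3 other lists, chr9:79186613-79186975 scored 28.7, against 13.9 in untreated list 1 and 27.0 and 9.07 in treated lists 1 and 2. At chr16:33965413-33965978 the score was 28.2, against 8.74 in untreated list 2 and 15.2 and 5.91 in treated lists 1 and 2.

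The lists shared different amounts of treated list 3. Treated list 2 held 390 of its peaks (73.9%, 70.0 to 77.4%), treated list 1 held 334 (63.3%, 59.1 to 67.3%), untreated list 1 held 284 (53.8%, 49.5 to 58.0%) and untreated list 2 held 205 (38.8%, 34.8 to 43.0%). This is also the order of the lengths of those lists. As a share of the other list, the overlap was 3.56% of treated list 2, 6.52% of treated list 1, 12.1% of untreated list 1 and 9.22% of untreated list 2. With as many top peaks taken from each as treated list 3 holds, the shares of treated list 3 were 38.4%, 34.7%, 30.7% and 23.5%, in the same order. Untreated list 2, with the same run identifier, held the lowest share of treated list 3 both ways. As a share of the other list, its 9.22% was above both treated lists and below untreated list 1.

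The partner peaks ranked high in their own lists. The median percentile of partners was 95.2 in treated list 2, 90.8 in treated list 1, 81.9 in untreated list 2 and 80.9 in untreated list 1. A percentile depends on the length of its list, and treated list 2 is the longest, so these values do not rank the lists. Outside the stretches the median percentile was 90.6 or above in all 4 lists.

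Even so, the short list missed many of the strongest peaks elsewhere. Of the 20 highest peaks of each list, treated list 3 held 16 from untreated list 1, 14 from untreated list 2 and 15 from treated list 2, but 8 from treated list 1 (40%, 21.9 to 61.3%). The other 3 lists held 95%, 90% and 95% of those 20 peaks of treated list 1. With 100 peaks per list the shares found in treated list 3 were 45%, 47%, 40% and 49%, and with as many as treated list 3 holds they were 29.5%, 21.0%, 32.6% and 33.3%. From treated list 1 the share found stayed between 39% and 46% over its top 20, 50, 100 and 200 peaks, while from the other 3 lists it fell with each step.

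**Figure D3:**
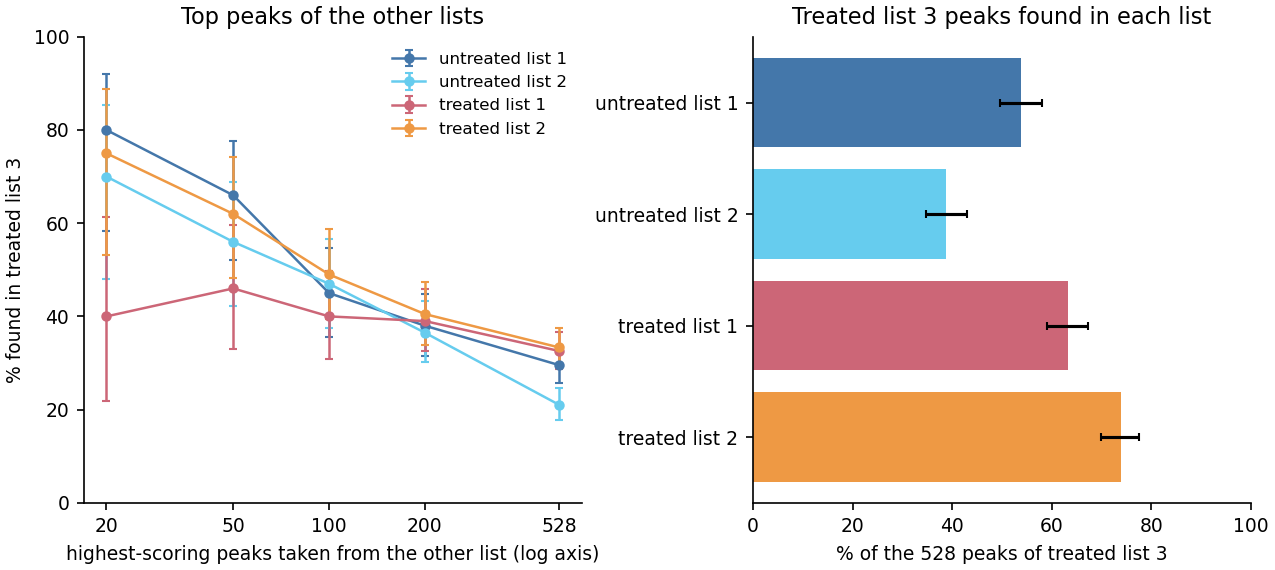
On the left is the percentage of the highest-scoring peaks of each other list (20, 50, 100, 200 and as many as treated list 3 holds, on a log axis) with an overlapping peak in treated list 3. On the right is the percentage of the peaks of treated list 3 found in each full list. Error bars are 95% Wilson intervals, and treated list 1 starts lowest on the left, at 40%.

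Whether peaks of the treated library recurred by treatment was read from the same overlaps. Lists of both kinds held 313 peaks (59.3%), which included 42 of the top 50. Only treated lists held 122 (23.1%, median score 6.13), and only untreated lists held 12 (2.27%, median score 10.7). The treated partners are far longer lists than the untreated ones, so 122 against 12 is no comparison at equal chance of overlap. With other lists limited to equal numbers of top peaks, the counts were 177 for both kinds, 81 for treated only and 24 for untreated only. Both other treated lists and no untreated list held 46 peaks (8.71%). Both untreated lists and no other treated list held 0, which allows a share of up to 0.568% at 3 counts. With 2 lists of each kind beside 1 list, these shares have no replicate spread and were not tested.

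The dense stretches of treated list 3 were 28 in number, on 14 chromosomes, and together spanned 1045 kb. The 3 with most peaks held 69 peaks (13.1% of the list), and 17 stretches held 5 or more. In 27 of the 28, every other list had a peak too. The exception was chr2:87584612-87625905, with 3 peaks of treated list 3, 3 in each of treated lists 1 and 2 and none in the untreated lists.

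The short list came closer in number to the others here, though all but untreated list 2 still had more peaks. Within its stretches untreated list 1 had 280 peaks (12.1% of that list), untreated list 2 had 167 (8.19%), treated list 1 had 401 (8.15%) and treated list 2 had 272 (2.70%), against its own 214. Treated list 3 had as many peaks as untreated list 2, or more, in 24 of the 28 stretches. The same was true in 13 against untreated list 1, 13 against treated list 2 and 4 against treated list 1. The stretches were chosen on treated list 3, which favours its own count.

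The longest row was chr8:86726578-86840883, 114.3 kb with 32 peaks. The untreated lists had 32 and 20 peaks there and treated lists 1 and 2 had 38 and 22, and 20 of the 32 overlapped all 4. A second row on the same arm, chr8:86555137-86575686, had 7 peaks, 6 of them in all 4 other lists. Among the other rows were chr4:190942925-191012461, with 21 peaks in 69.5 kb and 16 in all 4, and chr10:135474063-135494758, with 14 peaks in 20.7 kb and 11 in all 4. The last 2 lie near the end of a long arm. As background, the ends of 4q and 10q carry related tandem repeats of the D4Z4 kind, but no annotation of hg19 was used here to place these peaks in them.

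On chromosome 4 the peaks stood at a recurring distance. Among the 174 distances of 1 to 20 kb between peak centres, the most frequent was 3305.5 bp, found 13 times within 100 bp. In treated list 1 it was 3293.5 bp (18 of 356) and in untreated list 2 it was 3250 bp (6 of 112). In treated list 2 it was 6611 bp (13 of 229) and in untreated list 1 it was 6604.5 bp (18 of 333), close to double. The 5 lists thus gave the same step or its double, within 100 bp. Of the 21 peaks of the short list here, 16 overlapped a peak of every other list. Shared positions give shared distances, so the lists are not independent readings of the step.

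On chromosome 10 the steps were 6595 bp in treated list 3 (6 of 86), 6604.5 bp in treated list 1 (8 of 159) and 3284 bp in untreated list 1 (9 of 112). Untreated list 2 gave 2995 bp (4 of 63) and treated list 2 gave 1414.5 bp (4 of 99), so 3 of the 5 lists shared the step of chromosome 4. In the long row on chromosome 8 the lists did not share one. The most frequent distance there was 10565 bp (6 of 138) in treated list 3, 12651.5 bp in untreated list 1 and 12068.5 bp in treated list 2. A most frequent distance is picked from many and exists in any row of peaks, so it describes these rows and was not tested.

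**Figure D4:**
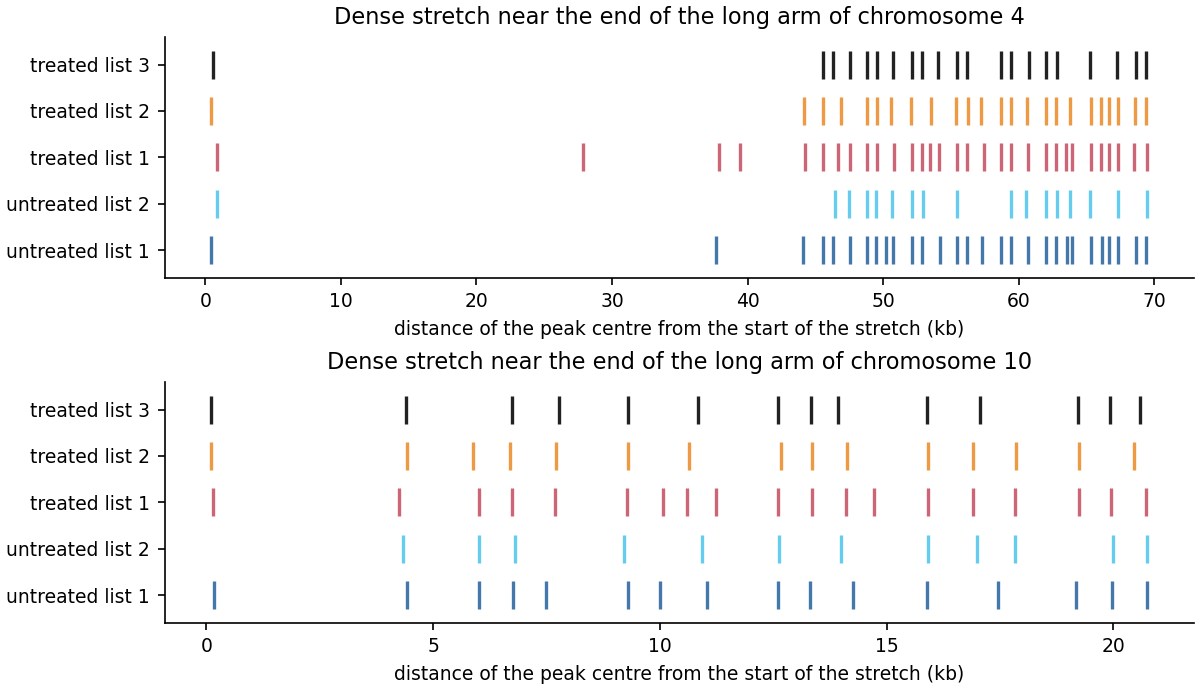
Each mark is the centre of 1 peak, placed by its distance in kb from the start of the dense stretch, with a row for each of the 5 lists. The upper panel is the stretch on chromosome 4, with 21 peaks of treated list 3, and the lower one is that on chromosome 10, with 14. Of the peaks of treated list 3, 16 on chromosome 4 and 11 on chromosome 10 overlap a peak of every other list.

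The other rows of 5 or more varied in how far they recurred. At chr1:2583575-2629254, with 16 peaks and a median score of 4.97, 4 peaks were in all 4 other lists, and at chr1:161412844-161439110, with 11 peaks, only 1 was. At chr19:36773560-36797681 there were 14 peaks, 6 of them in all 4, where the other lists had 10 to 16 peaks. The row with the highest median score, 12.8, was chr2:133011880-133062644, where 5 of 8 peaks were in all 4. At chr7:56438239-56442440 all 5 peaks were in all 4 other lists and covered 75.4% of the row. The untreated lists had 3 and 2 peaks there and treated lists 1 and 2 had 4 and 2, so several of the 5 shared a partner.

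The remaining rows were smaller. With 7 peaks each there were chr5:17585137-17599434, chr15:20450144-20512014, chr19:8851690-8893229 and chrX:114977680-115004891. With 6 there were chr5:34148010-34192620 and chr16:33935244-33965978, the latter with 5 of 6 in all 4 other lists. With 5 there were chr5:17517705-17529490 and chr15:21977253-22044823, and none of the 5 on chromosome 15 was in all 4. Treated list 1 had more peaks than treated list 3 in all of these 8 rows.

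To set the short list beside its peers at equal length, as many top-scoring peaks of each other list were taken as it holds. Their lowest scores were 12.9 for untreated list 1, 6.96 for untreated list 2, 14.8 for treated list 1 and 11.0 for treated list 2. They are the tops of longer lists, while treated list 3 enters whole. Stretches held 24.1% of untreated list 1, 15.0% of untreated list 2, 33.3% of treated list 1 and 21.2% of treated list 2, against 40.5% of treated list 3. The values below keep this order. It was above 4 of 4 lists, by 17.1 percentage points over the mean of the others, 23.4 ± 7.64% (SD, n = 4, exact two-sided permutation p = 0.2). Peaks found in all 4 of the other full lists were 18.6%, 18.9%, 23.7% and 19.7%, against 30.3% (10.1 points above 20.2 ± 2.35%, SD, n = 4, exact permutation p = 0.2).

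Neither exact test could have given less than p = 0.2 with 1 list against 4. Peaks found in at least 1 other full list were 75.4%, 56.4%, 83.5% and 80.7%, against 84.7% (exact permutation p = 0.4, n = 4). Median width was 257, 396.5, 263.5 and 439 bp, against 243 bp (exact permutation p = 0.4, n = 4). These medians also carry the narrowest width of each full list, which was 199, 332, 193 and 291 bp, against 200 bp. As a multiple of that width they were 1.29, 1.19, 1.37 and 1.51, against 1.215, so untreated list 2 was then lower than treated list 3. Against untreated list 2 alone, which shares the run identifier, the difference was 25.6 points for stretches, 11.4 for all 4 lists and 28.2 for at least 1 list, and -153.5 bp for width. Adjusted over the 4 measures by Benjamini and Hochberg, each exact p was 0.4.

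The gap in stretches shrank among the stronger peaks. In the higher-scoring 50% of treated list 3, and as many peaks from the top of every other list, stretches held 20.5%, 18.2%, 31.8% and 17.8%, against 25.0%, a difference of 2.94 points (exact permutation p = 0.8, n = 4) with treated list 1 above it. Stretches were found again from the peaks kept, 11 in treated list 3 against 28 in the whole list. A row thus also loses members when its weaker peaks are dropped. How much of the excess belongs to the lower-scoring peaks themselves was not tested. The other lists entered with no peaks of such low rank.

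Counts of peaks held by every other list favour the shortest list. The partners of treated list 3 are 4 longer lists, while each other list must also match the short one. With equal numbers on every side, 73, 73, 73 and 71 peaks of the other lists and 75 of treated list 3 were in all 4 of the rest, a difference of 0.473 percentage points. Peaks in none of the rest were then 183, 298, 140 and 153, against 246, second to untreated list 2, so that the share found in at least 1 other list now differed by -9.94 points (exact permutation p = 0.8, n = 4). Outside stretches, 53, 55, 51 and 52 peaks of the other lists were in all 4 full lists, against 59.

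**Figure D5:**
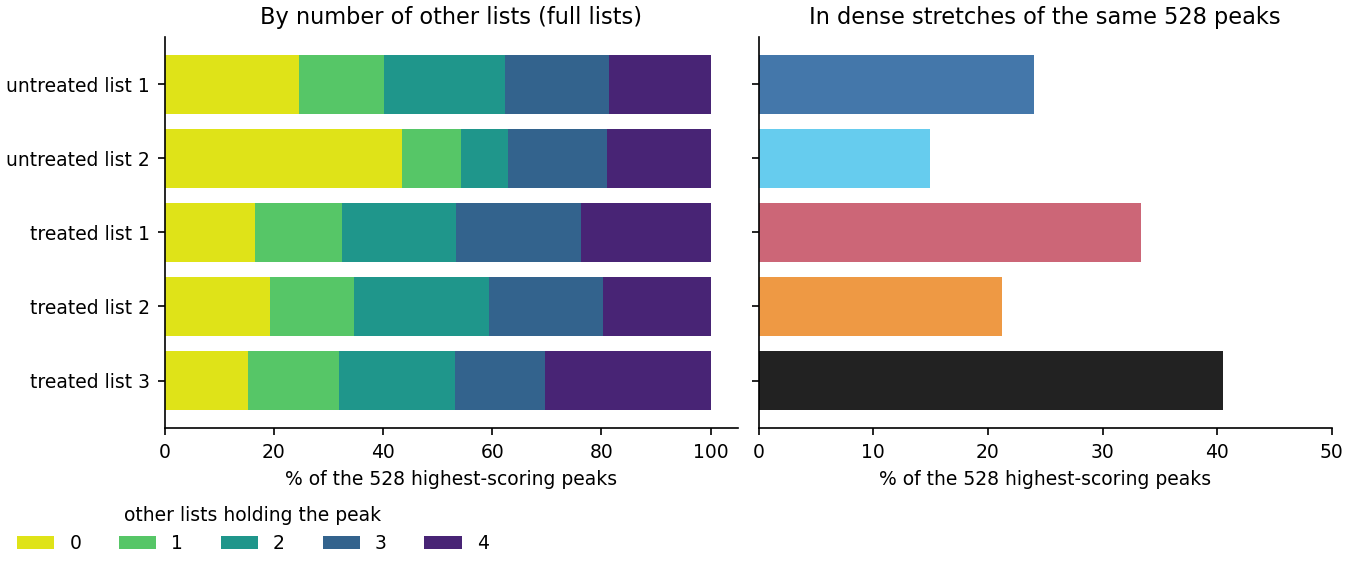
For equal numbers of top-scoring peaks of each list, the left panel stacks the percentage held by 0 to 4 of the other full lists, and the right panel gives the percentage in dense stretches of the same peaks. Each bar is 1 library, with no error bar. Treated list 3 has the longest bar on the right, 40.5%, and the widest share held by all 4 on the left, 30.3%.

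By chromosome, at the same equal length, treated list 3 lay above all 4 other lists on 6 chromosomes, below all on 10 and among them on 8. Chromosome 19 carried 6.44% of its peaks (34 peaks) against 1.70 to 2.84%, but only 10 of the 34 lay outside stretches. Chromosome 8 carried 11.2% (59 peaks, 20 outside stretches) against 7.58 to 9.85%. Chromosome 1 carried 12.3% (65 peaks, 35 outside stretches) against 7.39 to 9.66%. The others above all lists were chromosome 10 (49 peaks, 31 outside stretches), chromosome 14 (26 peaks, all outside) and chromosome 15 (20 peaks, 8 outside). On chromosome 11 there were 5 peaks (0.947%) against 2.84 to 3.98%. These are 1 library against 4, so they describe the lists.

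The share of peaks near chromosome ends, taken as the first and the last peak of any list, lay within the range of the other lists at equal length, but not among the stronger peaks. The first peak can lie far from the true end of a chromosome. The rows chr15:20450144-20512014 and chr15:21977253-22044823 thus counted as near an end, though their coordinates are far from the start of chromosome 15. Within 5 Mb of an end in this sense were 107 peaks (20.3%), against 14.2%, 21.4%, 18.6% and 17.0% in the top peaks of the others. In the higher-scoring 50% of treated list 3 the share was 18.9%, above the 11.4 to 17.8% in as many top peaks of each other list. In stretches the share was 32.2% and outside them 12.1%. By recurrence it was 12.3% in no other list, 20.5% with 1 list, 13.4% with 2, 25.3% with 3 and 26.2% with 4.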

How the data were processed

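The authors deposited 1 peak list per p300 library with chromosome, start, end, name and a score for each peak, so peaks were called per library. Calling used MACS2 on hg19, per the submitters' processing notes. For the aligner, the handling of reads that match many places, the caller's version, its threshold and the inputs set against each library, nothing is given in the sources used here. The deposited score has no named scale, and ties are common. Depth is unknown.

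Treated list 3 holds 528 peaks. Overlap meant 1 bp or more. Dense stretches were runs of 3 or more peaks of 1 list, each within 50 kb of the next. The library was the unit, peaks were not treated as replicates, and list 3 was compared by exact permutation with the 528 top-scoring peaks of each other list. Named regions were the 10 highest peaks, the 3 highest per recurrence group, stretches of 5 or more peaks, and the widest and narrowest peaks. Members and lists were chosen with earlier results of these data known. No hg19 genome or annotation was used, so no gene or sequence is named. Overlap counting was tested on simulated data (100% of 1000 peaks recovered). Python 3.11.15, numpy 2.4.6, pandas 2.3.3, scipy 1.17.1, statsmodels 0.14.6 and matplotlib 3.10.9 were used. Alternatives varied the overlap, the distance and number of peaks per stretch, the peaks and chromosomes kept, the number of peaks taken and the lists left out.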

Additional observations from a re-analysis of the deposited data

How the results depend on the processing

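At equal length, differences that kept their direction could still shrink. The difference in stretches fell to 2.94 points with the higher-scoring 50% of treated list 3 and as many peaks of each other list, that for all other lists to 0.473 points against equally short lists, and that for at least 1 list to 4.26 points with that higher-scoring 50%. The 1 value that reversed was the share found in at least 1 other list at equal length, at -9.94 points (treated list 3 minus the others) when overlap was counted against equally short lists. Peaks in no other list were 21 among peaks at or above the median score, 246 against equally short lists, and 86 to 132 when a list was left out, with 132 without treated list 2. Peaks in every other list were 105, 75 and, outside stretches, 59, and 161 to 219 when a list was left out. The percentile difference between those groups was 15.9 at or above the median score, 47.7 outside stretches and 29.5 to 33.7 on leaving out a list. The width difference was 7 bp against equally short lists, 22 bp outside stretches and 74 to 100 bp on leaving out a list. The share in stretches was 35.8% with 20 kb between neighbours, 46.2% with 2 or more peaks per run, 33.7% with 5 or more, 29.9% with runs of regions held by all 5 lists and 25.0% at or above the median score. At equal length, leaving out a list gave 14.3 to 20.5 points for stretches, -123.3 to -62.7 bp for width, 4.92 to 15.7 points for at least 1 list and 10.4 to 17.0 points for all. No paired analysis was possible because treated list 3 has no untreated library of its number. Unknown depth and 1 library limit every value.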
